A study of Mus musculus with 10 samples.

Results

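The STAT transcription factors were followed as 6 genes, Stat2, Stat3, Stat4, Stat5a, Stat5b and Stat6, chosen by gene name from the 54532 genes of the count table. All 6 passed the filter on low counts that left 21414 genes for testing. STAT proteins wait in the cytoplasm until a cytokine receptor and its JAK kinase phosphorylate them on a tyrosine. They then pair up, enter the nucleus and bind DNA, and SOCS proteins and Cish, which they induce, shut the receptor off again. In regulatory T cells (Tregs), STAT5 downstream of IL-2 maintains Foxp3, STAT3 supports the Treg programme that restrains type 17 responses, and STAT4 and STAT6 carry IL-12 and IL-4 signals.

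Tregs were sorted as CD45+, CD3+, CD4+, CD25+ and GFP+ cells and sequenced with Smart-seq2, which copies whole transcripts from little RNA. Tumor libraries (n = 5) came from colon tumours of Apc Min/+ mice carrying the Foxp3 DTR allele, and WT libraries (n = 5) from the colon of Foxp3 DTR mice without Apc Min. The Min allele truncates Apc, a brake on Wnt signalling, and the mice develop intestinal tumours, so effects of the allele and of the tumour tissue cannot be told apart. Foxp3 DTR places a diphtheria toxin receptor under Foxp3 control and was present in both groups. All mice were C57BL/6 males, 16 weeks old. No label states whether the libraries of a group came from separate or pooled animals, and each p-value therefore reflects sample-to-sample spread that may be technical.

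Library totals were 3054435 to 7747699 counts in Tumor and 1676229 to 8412887 counts in WT. T cell RNA differed between the groups. The 14 T cell marker genes summed to 4232 to 6414 CPM (read counts scaled to the library total) in Tumor and to 173 to 1583 CPM in WT. Of the 14, 11 were higher in every Tumor library than in every WT library. The share of all tested genes was not computed on this scaling. Foxp3 was detected in all libraries, with 208 to 910 reads in Tumor and 14 to 109 reads in WT. Scaled to the library total the groups overlapped, with 35.9 CPM in Tumor replicate 4 and 40.4 CPM in WT replicate 4. Cd8a stood at 72.7 CPM in Tumor replicate 4, at 61.6 CPM in WT replicate 5 and at most at 18.5 CPM in the others. The 16 epithelial markers summed to 45.5 to 5764 CPM in Tumor, to 27458 and 36270 CPM in WT replicates 1 and 2, and to 168 to 282 CPM in WT replicates 3 to 5. The 12 macrophage and monocyte markers summed to 1326 to 6025 CPM in Tumor and to 67.1 to 165 CPM in WT. B and plasma cell markers reached 3692 CPM in WT replicate 3, and the repeat-rich gene model Gm10800 took 9.92 to 26.5% of counts in WT replicates 3 to 5. No marker of these lists was at 0 in every library of a group. Of the 11 macrophage and monocyte markers tested, 5 rose in Tumor, against 1.37% of all tested genes. With each library scaled to its T cell marker genes 4 were higher and 1 lower, against 0.103% and 88.8% of all tested genes. The part of T cell, epithelial, macrophage and B cell RNA in the STAT differences was not tested. STAT levels and fold changes are given on the scaling of trimmed mean of M values (TMM), and fold changes also with each library scaled to its T cell marker genes. In bulk samples, fewer T cells and less RNA per T cell cannot be told apart.

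The comparison of Tumor with WT asks whether Tregs of Apc Min/+ colon tumours carry other amounts of STAT transcripts than colon Tregs. Stat3, Stat4, Stat5a and Stat6 were higher in every Tumor library than in every WT library, while Stat5b and Stat2 overlapped. This holds on TMM scaling. With the total of the tested genes as the only scaling, Stat3 and Stat5a also overlapped and 2 of the 6 stood wholly above. With the total of all genes, Stat3 overlapped and 3 of the 6 stood wholly above WT. The share of all tested genes that stood wholly above was not computed for these totals. On TMM scaling the log2 fold changes of Stat3, Stat4, Stat5a and Stat6 ran from 1.21 to 1.94. No STAT gene passed the test (edgeR quasi-likelihood test, adjusted p from 0.0834 for Stat4 to 0.583 for Stat2), against 1.59% of all tested genes called, 1.37% higher and 0.219% lower. DESeq2 called 0 of the 6, with 1651 of the 21414 genes tested called and 3.18% of them called higher. Limma voom called Stat4 as higher, with 507 genes called and 2.21% of all tested genes called higher. Unadjusted p was below 0.05 for 4 of the 6, all in the higher direction, against 7.75% of all tested genes higher and 8.31% lower. Complete separation with Tumor above, found for 4 of the 6, held for 4.38% of all tested genes, and separation with Tumor below, found for 0 of the 6, for 1.57%. The log2 fold change was above 0 for 5 of the 6 and for 43.8% of all tested genes. The median log2 fold change was 1.30 over the 6 genes and -0.20 over all genes tested.

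**Figure D1:**
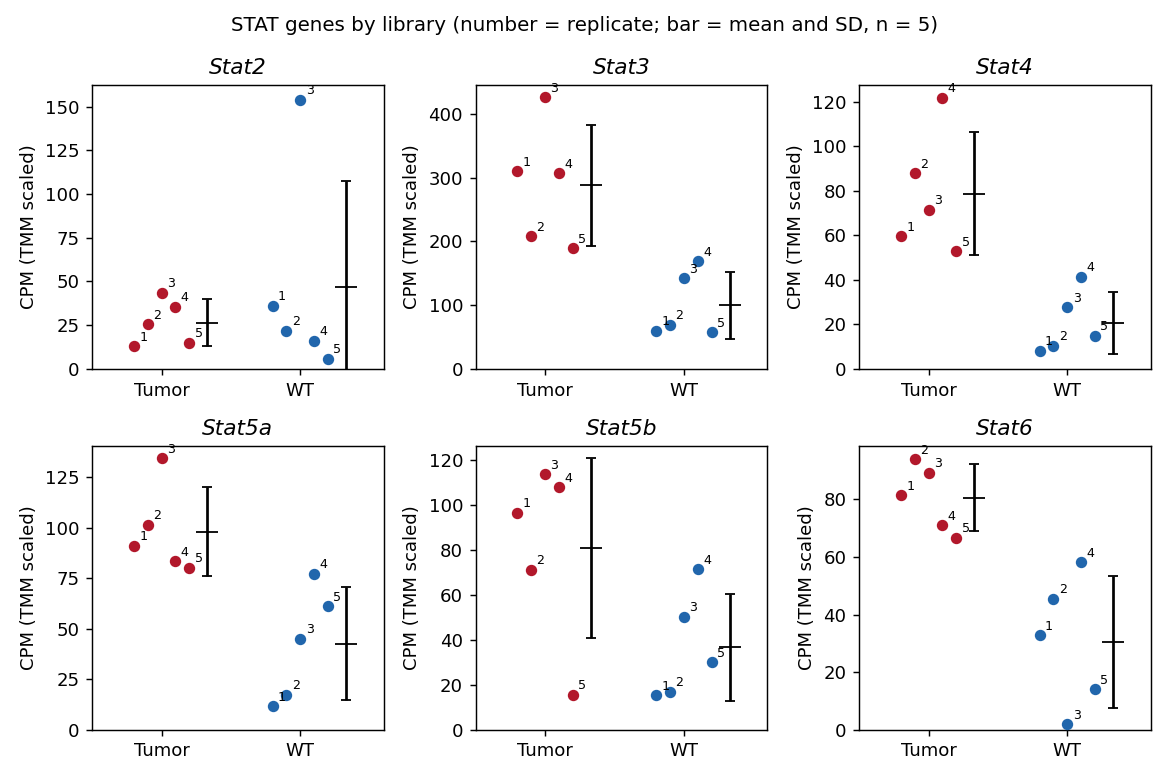
TMM scaled CPM of the 6 STAT genes in each library, 1 panel per gene with its own axis from 0. Points are libraries with their replicate number, and the bar beside each group is the mean with its SD (n = 5, cut at 0 for Stat2 in WT). Stat3, Stat4, Stat5a and Stat6 do not overlap between groups, Stat5b overlaps through Tumor replicate 5, and Stat2 has 1 high WT library at 154 CPM.

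Stat5a and Stat5b encode the paired mediators of IL-2 signals. They lie next to each other on chromosome 11 of mm10, Stat5a (ENSMUSG00000004043) from 100859351 to 100885169 on the plus strand and Stat5b (ENSMUSG00000020919) from 100780731 to 100850724 on the minus strand. Their coding sequences were 90.7% identical over aligned bases, whereas every other pair among the 6 genes lay between 54.0 and 61.3%. The longest stretch without a difference ran over 324 bases, from 571 to 894 of either coding sequence in GENCODE M21. Its first 120 bases, 571 to 690, are shown because reads inside them fit both genes:
Stat5a and Stat5b shared coding stretch: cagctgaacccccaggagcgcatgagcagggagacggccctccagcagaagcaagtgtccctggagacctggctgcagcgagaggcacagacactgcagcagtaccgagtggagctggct

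Of the 50-base windows of the Stat5a transcript compared, 17.1% also occurred in that of Stat5b, and 11.8% of the Stat5b windows occurred in Stat5a. No window of that length was shared by any other pair of the 6 genes. How the counting treated reads that fit both genes is not given in the sources used here, so the split between Stat5a and Stat5b is uncertain to that extent.

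Stat5a stood at 91.0, 102, 134, 83.2 and 80.1 CPM in Tumor replicates 1 to 5 and at 11.7, 17.3, 45.1, 77.2 and 61.2 CPM in WT replicates 1 to 5. The groups did not overlap, but the margin was narrow, with 80.1 CPM in the lowest Tumor library and 77.2 CPM in the highest WT library. Group means were 98.1 ± 21.9 CPM in Tumor and 42.5 ± 28.03 CPM in WT (SD, n = 5 each), a log2 fold change of 1.21 ± 0.55 (SE, edgeR adjusted p = 0.291). The 95% interval of that log2 fold change was 0.056 to 2.36.

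Stat5b stood at 96.7, 71.3, 114, 108 and 15.6 CPM in Tumor replicates 1 to 5 and at 15.4, 16.9, 50.2, 71.3 and 29.9 CPM in WT replicates 1 to 5. Tumor replicate 5, at 15.6 CPM or 68 reads, fell among the lowest WT libraries, and the other Tumor libraries were level with or above the highest WT library. The log2 fold change was 1.14 ± 0.59 (SE, edgeR adjusted p = 0.349, 95% interval -0.093 to 2.38). Per length, Tumor replicate 5 held 3.96 times as much Stat5a as Stat5b, against 0.599 to 1.11 times in the other 4 Tumor libraries. In WT the ratio was 0.590 to 0.840 in replicates 1 to 4 and 1.58 in replicate 5. The log2 ratio averaged 0.16 ± 1.07 in Tumor and -0.24 ± 0.54 in WT (SD, n = 5 each), a difference of 0.40 that was not distinguishable from 0 (exact permutation test over all regroupings, 2-sided, p = 0.548, where the smallest possible is 0.00794). Without Tumor replicate 5 the difference was -0.052 (exact p = 0.889).

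Stat3 carries signals of IL-6, IL-10, IL-21 and IL-23. The gene (ENSMUSG00000004040) lies on chromosome 11 from 100885098 to 100939540 on the minus strand, and its last 72 bases overlap the end of Stat5a on the opposite strand. That overlap makes up 0.756% of the exon bases of Stat3 and 1.009% of those of Stat5a. Stat3 stood at 309.9, 208, 427, 308 and 189 CPM in Tumor replicates 1 to 5 and at 59.7, 69.2, 143, 169 and 57.2 CPM in WT replicates 1 to 5. Tumor replicates 2 and 5 came closest to WT replicates 3 and 4, and the groups did not overlap on TMM scaling. Means of 288 ± 95.3 CPM in Tumor and 99.5 ± 52.4 CPM in WT (SD, n = 5 each) gave a log2 fold change of 1.53 ± 0.59 (SE, edgeR adjusted p = 0.212, 95% interval 0.30 to 2.77).

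Stat4 relays IL-12 in T helper type 1 cells. The gene (ENSMUSG00000062939) lies on chromosome 1 from 51987148 to 52107189, and 1033 of its 3872 exon bases (26.7%) are also annotated to the transcript Gm28177 on the same strand, which had at most 34 reads in a library. Stat4 stood at 59.6, 87.9, 71.6, 122 and 52.8 CPM in Tumor replicates 1 to 5 and at 8.19, 10.4, 27.7, 41.5 and 14.97 CPM in WT replicates 1 to 5. All Tumor libraries lay above WT replicate 4, the highest of its group. Means were 78.7 ± 27.5 CPM in Tumor and 20.5 ± 13.9 CPM in WT (SD, n = 5 each), a 3.84-fold difference. Its log2 fold change of 1.94 ± 0.55 was the highest of the 6 (SE, edgeR adjusted p = 0.0834, 95% interval 0.80 to 3.09). It passed without WT replicate 4 (2.37 ± 0.58, adjusted p = 0.0438), with limma voom (2.28 ± 0.56, adjusted p = 0.0319) and with voom and sample quality weights (1.96 ± 0.55, adjusted p = 0.0471), and the other 9 fits without a single library gave adjusted p of up to 0.231.

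Stat6 relays IL-4 and IL-13. The gene (ENSMUSG00000002147) lies on chromosome 10 from 127642986 to 127660957 and shares 40 exon bases (0.909%) with Nab2 on the opposite strand. Stat6 stood at 81.5, 94.1, 89.3, 71.0 and 66.8 CPM in Tumor replicates 1 to 5, the narrowest spread of the family in Tumor, and at 32.8, 45.5, 1.88, 58.2 and 14.1 CPM in WT replicates 1 to 5. WT replicate 3 held 4 reads of Stat6, against 31 to 329 in the other WT libraries, and no WT library reached the lowest Tumor library. Means of 80.5 ± 11.6 CPM in Tumor and 30.5 ± 22.8 CPM in WT (SD, n = 5 each) gave a log2 fold change of 1.40 ± 0.63 (SE, edgeR adjusted p = 0.282, 95% interval 0.086 to 2.70).

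Stat2 acts with Irf9 downstream of type I interferon receptors. The gene (ENSMUSG00000040033) lies on chromosome 10 from 128270559 to 128292849 and shared no exon base with another gene of the table. Stat2 stood at 12.9, 25.7, 43.7, 35.5 and 14.9 CPM in Tumor replicates 1 to 5 and at 36.04, 21.8, 154, 16.01 and 5.90 CPM in WT replicates 1 to 5. WT replicate 3 was far above the other 9 libraries, which overlapped between groups. Means of 26.5 ± 13.2 CPM in Tumor and 46.8 ± 60.9 CPM in WT (SD, n = 5 each) gave a log2 fold change of -0.81 ± 0.71 (SE, edgeR adjusted p = 0.583, 95% interval -2.29 to 0.67). Without WT replicate 3 the log2 fold change was 0.43 ± 0.62 (adjusted p = 0.815). That library also had the highest B and plasma cell marker sum, 3692 CPM against 77.9 to 456 CPM in the other 9, and the part of those cells in its Stat2 and Stat6 levels was not tested.

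Start-site windows of the 6 genes (250 bases before to 50 after an annotated start, RefSeq, GRCm38.p6) were searched on both strands for the letters that STAT complexes are known to bind. All 6 genes were matched, with 9 windows. The STAT dimer motif TTCNNNGAA was in 0 of the 9 windows and in 8.30% of 32851 windows of that length genome-wide. Its form with TTC and GAA 4 bases apart was in the Stat2 window (6.95% of all windows). The interferon-stimulated response element, which STAT2 binds with its partners, was searched as a pair of TTTC blocks 2 bases apart. It was in the Stat2 window and in the second Stat4 window (3.44% of all windows). Both windows are shown because they are the ones that hold a match, with the matched letters in capitals:
Stat2, chr10:128270248-128270547, plus strand: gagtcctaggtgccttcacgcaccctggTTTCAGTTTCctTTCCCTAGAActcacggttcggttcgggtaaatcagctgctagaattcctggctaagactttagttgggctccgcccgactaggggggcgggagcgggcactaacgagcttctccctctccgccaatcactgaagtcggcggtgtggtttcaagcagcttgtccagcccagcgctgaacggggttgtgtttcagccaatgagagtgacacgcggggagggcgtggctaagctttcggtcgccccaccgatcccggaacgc
Stat4 second start, chr1:52007990-52008289, plus strand: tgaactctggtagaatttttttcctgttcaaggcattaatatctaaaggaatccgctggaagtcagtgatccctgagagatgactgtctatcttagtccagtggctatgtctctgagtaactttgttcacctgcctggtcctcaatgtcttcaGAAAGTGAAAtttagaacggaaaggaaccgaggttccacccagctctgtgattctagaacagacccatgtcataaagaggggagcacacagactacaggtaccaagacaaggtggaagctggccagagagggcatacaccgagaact
A match is a description of these letters, not of a bound site.

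Within a library, the makeup of the family does not depend on the library scaling. Levels per length (TMM scaled CPM per kb of gene model) were summed over the 6 genes and each share taken. Stat3 held 22.4 to 34.4% in Tumor and 21.4 to 26.04% in WT. Stat4 held 20.2 ± 5.30% in Tumor and 11.6 ± 3.20% in WT (SD, n = 5 each), overlapping between 14.2% in Tumor replicate 3 and 15.7% in WT replicate 4. Stat2 held 2.21 to 5.66% in Tumor, and in WT 23.1, 12.5, 40.6, 3.97 and 3.55% in replicates 1 to 5. Shares of Stat5a and Stat6 were spread more widely in WT than in Tumor: Stat5a held 9.97 to 17.2% in Tumor and 6.23 to 30.6% in WT, and Stat6 held 13.8 to 23.3% in Tumor and 0.667 to 35.1% in WT. Stat5b held 4.32 to 17.7% in Tumor and 10.3 to 19.3% in WT, with Tumor replicate 5 below every WT library and WT replicates 4 and 5 above every Tumor library. These shares are a description and were not tested.

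**Figure D2:**
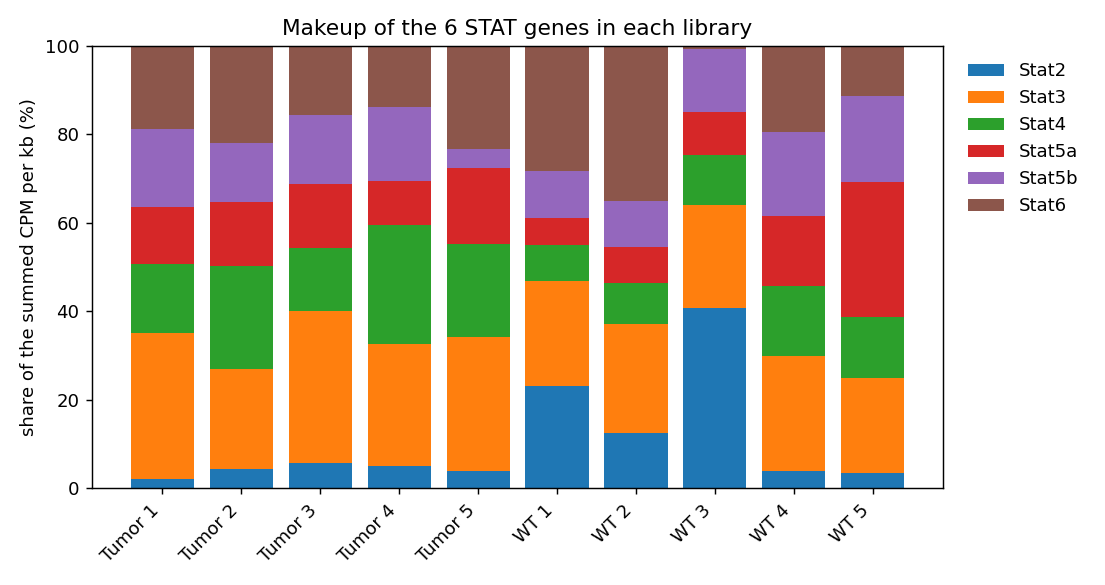
Share of each STAT gene in the summed level per length (CPM per kb) of the 6 genes, 1 bar per library, Tumor left and WT right. Stat2 takes 40.6% of WT replicate 3 and at most 5.66% of a Tumor library, and Stat6 takes 0.667% of WT replicate 3.

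By level per length the order in Tumor was Stat3 (30.3 ± 9.999 CPM per kb), Stat4 (20.3 ± 7.10), Stat6 (18.3 ± 2.64), Stat5b (14.6 ± 7.22), Stat5a (13.7 ± 3.08) and Stat2 (4.48 ± 2.22; SD, n = 5). Stat3 was above Stat4 in 4 of the 5 Tumor libraries, by about its own spread, and Stat2 was the lowest in all 5. Stat4 and Stat6, Stat6 and Stat5b, and Stat5b and Stat5a differed by less than their spread. In WT the order was Stat3 (10.4 ± 5.50), Stat2 (7.89 ± 10.3), Stat6 (6.92 ± 5.19), Stat5b (6.64 ± 4.30), Stat5a (5.96 ± 3.93) and Stat4 (5.31 ± 3.60), and no neighbours in it differed beyond their spread. Stat2 was second by mean through WT replicate 3 and was above Stat6 in 1 of the 5 WT libraries.

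Scaled to the T cell marker genes, the STAT genes no longer stood above WT. Their log2 fold changes became -0.92 ± 0.76 for Stat4, -1.49 ± 0.79 for Stat3, -1.81 ± 0.73 for Stat5a, -1.86 ± 0.73 for Stat5b, -1.87 ± 0.82 for Stat6 and -3.92 ± 0.88 for Stat2 (SE). Of the 6, Stat2, Stat5a, Stat5b and Stat6 passed as lower (edgeR adjusted p = 0.000948, 0.0234, 0.0217 and 0.0345), against 88.8% of all tested genes, and Stat3 and Stat4 did not (0.0736 and 0.246). In 4 of the 6, every Tumor library lay below every WT library on this scaling, against 38.5% of all tested genes, and 0 of the 6 lay wholly above, against 0.154%. The median of all tested genes was -3.49 on this scaling, and every STAT gene except Stat2 lay above it. The T cell marker genes themselves had a TMM median of 2.83, above each STAT gene.

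**Figure D3:**
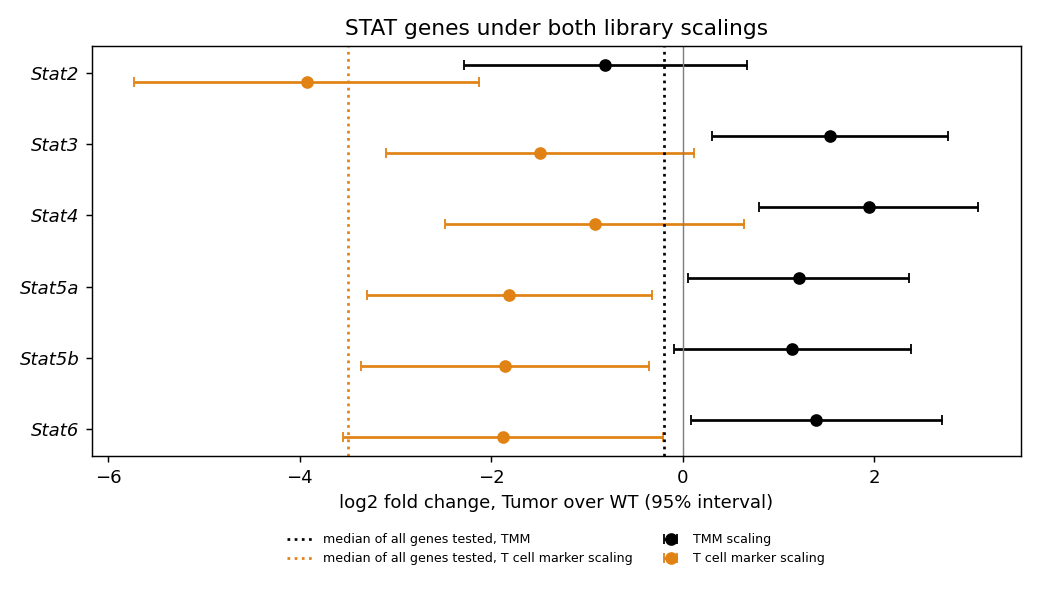
Log2 fold change (Tumor over WT) of the 6 STAT genes with its 95% interval, on TMM scaling (black) and scaled to T cell marker genes (orange). Dotted lines mark the medians of all genes tested, -0.20 and -3.49. Under both scalings Stat4 has the highest value and Stat2 the lowest.

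Fits against the WT libraries with much epithelial RNA and against those with little gave different estimates, and the difference between the fits was not tested. Against WT replicates 1 and 2 alone, Stat3 (2.16 ± 0.49, edgeR adjusted p = 0.00581), Stat4 (3.07 ± 0.59, 0.00106), Stat5a (2.73 ± 0.55, 0.00158) and Stat5b (2.33 ± 0.64, 0.0282) rose, 4 of the 6, with 2.32% of all tested genes called higher in that fit. Stat6 (1.03 ± 0.49, 0.413) and Stat2 (-0.092 ± 0.65, 0.9996) did not pass. Against WT replicates 3 to 5 alone, the values were 1.24 ± 0.59 for Stat3 and 1.49 ± 0.56 for Stat4 (SE). For Stat5a and Stat5b they were 0.70 ± 0.50 and 0.70 ± 0.60, and for Stat6 and Stat2 1.68 ± 0.71 and -1.11 ± 0.74. None of the 6 passed (edgeR adjusted p from 0.106 to 0.530), with 6.40% of all tested genes called higher in that fit. WT replicates 1 and 2 also had the lowest and the third lowest T cell marker levels, 11.7 and 33.1 CPM as geometric means, against 32.0 to 103 CPM in WT replicates 3 to 5 and 246 to 394 CPM in Tumor. The part of epithelial RNA in these differences was not tested.

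**Figure D4:**
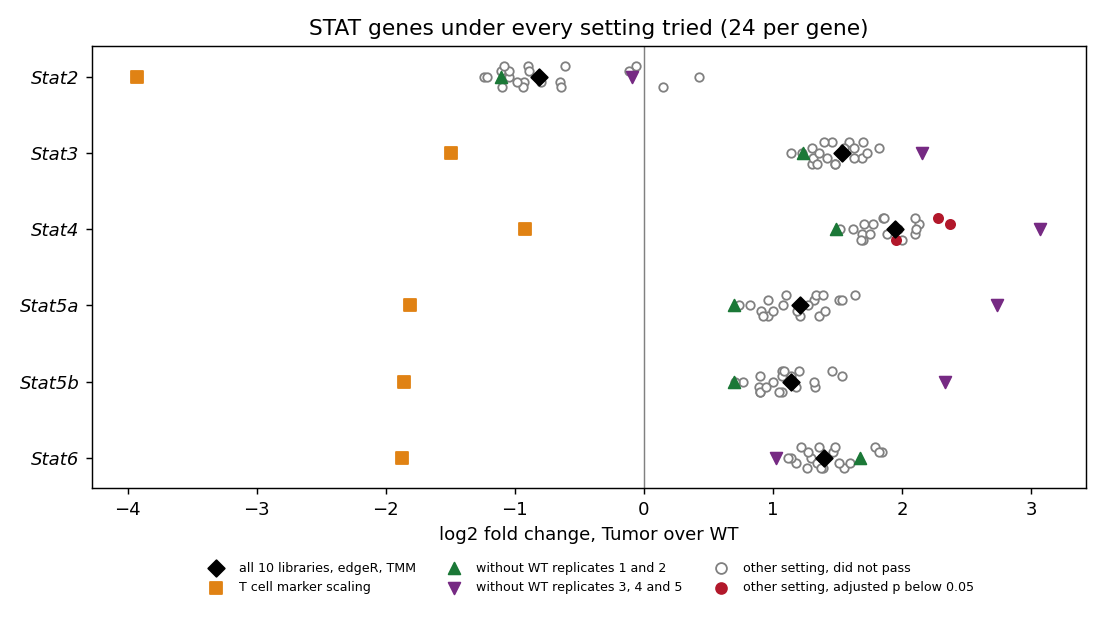
Log2 fold change (Tumor over WT) of each STAT gene under the main analysis and 23 other settings, 1 symbol per setting. The diamond is the fit to all 10 libraries. Stat4 shows 3 red points (adjusted p below 0.05) besides the fit without WT replicates 3, 4 and 5, and the 5 genes other than Stat2 turn negative under T cell marker scaling (squares) and under no other setting.

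The other genes of the pathway were taken from 8 lists drawn up with earlier results of these libraries known, which are therefore no independent evidence of direction. Of 78 tested genes on them, 16 rose and 0 fell on TMM scaling, 20.5% against 1.37% of all tested genes. Leaving out single libraries gave 2 to 18 higher calls, and the share of all tested genes called higher moved too. Calls were fewest without Tumor replicate 3 (2, 2.56% against 0.266% of all tested genes) and WT replicate 1 (3, 3.80% against 0.275%). Few also remained without Tumor replicate 2 (4, 5.06% against 0.317%), Tumor replicate 1 (5, 6.41% against 0.515%) and Tumor replicate 4 (7, 8.97% against 0.451%). Without WT replicate 5 there were 18 (23.1% against 1.20%). With T cell marker scaling 2 were higher and 39 lower, against 0.103% and 88.8% of all tested genes.

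None of the 4 JAK kinases, which phosphorylate STATs at the receptor, passed on TMM scaling with edgeR or limma voom, or with DESeq2. Unadjusted p in edgeR was below 0.05 for 2 of the 4, against 7.75% of all tested genes higher and 8.31% lower. With T cell marker scaling Jak2 (-2.24, edgeR adjusted p = 0.00706) and Tyk2 (-3.05, 0.00159) were lower, against 88.8% of all tested genes. The list median was -1.86 on that scaling. Without WT replicates 3, 4 and 5 there were 2 calls, both higher, against 2.32% of all tested genes. Jak3, partner of the common gamma chain, had a log2 fold change of 1.75 ± 0.52 (edgeR adjusted p = 0.102) and Jak1 of 1.55 ± 0.61 (adjusted p = 0.219, no overlap between groups). Of 21 receptor genes that signal through STATs, 6 rose. They were the IL-2 receptor chains Il2ra (3.30 ± 0.81), Il2rb (3.48 ± 0.78) and Il2rg (3.33 ± 0.78), the IL-4 receptor Il4ra (2.39 ± 0.56), the IL-7 receptor Il7r (4.21 ± 0.85) and the IL-10 receptor Il10ra (3.52 ± 0.69), with edgeR adjusted p from 0.0157 to 0.0436. These calls held in 2 (Il2ra), 3 (Il2rg and Il4ra), 5 (Il2rb and Il7r) and 8 (Il10ra) of the 10 fits without a single library. The list median was 1.47, and -1.40 with T cell marker scaling. On the latter 0 were higher and 9 lower, against 0.103% and 88.8% of all tested genes.

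Among 17 pathway inhibitors, 3 rose, all of them genes that STATs are known to induce. Socs2 and Usp18, listed below as STAT5 and STAT2 targets, did not pass (1.65 ± 0.54 and -0.019 ± 0.998, SE, edgeR adjusted p = 0.144 and 0.994). Socs1, a feedback inhibitor of interferon and common gamma chain signals, averaged 49.5 ± 24.8 CPM in Tumor and 4.33 ± 1.73 CPM in WT (SD, n = 5 each), a log2 fold change of 3.49 ± 0.62 (SE, edgeR adjusted p = 0.00842). Cish, an early STAT5 target, averaged 486 ± 154 CPM in Tumor and 58.0 ± 39.9 CPM in WT (3.07 ± 0.69, adjusted p = 0.0300). Socs3, induced by STAT3, averaged 90.3 ± 27.7 CPM in Tumor and 14.2 ± 12.9 CPM in WT (2.68 ± 0.59, adjusted p = 0.0282). Their calls held in 9, 4 and 4 of the 10 fits without a single library. With T cell marker scaling the values of Socs1, Cish and Socs3 were 0.018, 0.23 and -0.24 and none passed. On that scaling 12 of the 17 inhibitors were lower, Socs2 and Usp18 among them, against 88.8% of all tested genes. The list median was 0.97 on TMM scaling.

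The 10 genes listed as STAT5 targets, a list drawn up with results known, had a median log2 fold change of 2.35. Of them 4 were called higher. They were Cish and Il2ra, both already counted above, the costimulatory receptor Tnfrsf4 (4.20 ± 0.86, edgeR adjusted p = 0.0190) and the chemokine receptor Ccr8 (6.31 ± 0.94, 0.00566). Foxp3, which STAT5 helps to maintain, did not pass (2.48 ± 0.64, edgeR adjusted p = 0.0560, with overlapping groups). Of 12 listed STAT3 targets 3 rose, Socs3, the chemokine receptor Ccr6 (3.38 ± 0.71, 0.0215, with overlapping groups) and the cytokine Il17a (7.25 ± 0.93, 0.00341), with a list median of 2.23. Il17a had 49 to 1201 reads in Tumor libraries and 0 to 5 reads in WT libraries, and Ccr8 had 332 to 1801 reads in Tumor and 0 to 26 reads in WT. The calls of Ccr8 and Il17a held in all 10 fits without a single library, and those of Tnfrsf4 and Ccr6 in 6 each. After T cell marker scaling Ccr8 (3.40) and Il17a (4.58) stayed called higher, and the list medians turned to -0.45 and -0.75.

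Of 6 tested STAT4 targets 1 rose, the IL-18 receptor subunit Il18rap (2.60 ± 0.55, edgeR adjusted p = 0.0211), and the median was 1.09. Ifng, the cytokine best known as a STAT4 target, did not pass the low-count filter, with 0 to 403 reads in Tumor libraries and 0 to 117 reads in WT libraries. Of 5 tested STAT6 targets 3 rose, the transcription factor Gata3 (3.33 ± 0.74, 0.0283), Il4ra and Tff1 (5.68 ± 1.21, 0.0261), a trefoil peptide best known from mucosal epithelium. Of the 10 fits without a single library, the call held in 5 for Il18rap, 4 for Gata3 and 7 for Tff1. With T cell marker scaling none of these calls remained (Il18rap -0.62, Gata3 0.77, Il4ra -0.55, Tff1 1.77). On that scaling 4 of the 6 STAT4 targets and 0 of the 5 STAT6 targets were lower, against 88.8% of all tested genes. The 12 STAT2 targets, all genes of the interferon response, had 0 calls with edgeR on TMM scaling, against 1.59% of all tested genes. DESeq2 called 2 higher and 1 lower, against 682 (3.18%) higher and 969 lower of the 21414 genes tested. Unadjusted p in edgeR was below 0.05 for 3 of the 12, against 7.75% of all tested genes higher and 8.31% lower. The list median was -0.25, close to the -0.20 of all tested genes. Bst2 (2.06 ± 0.59, edgeR adjusted p = 0.0914) and Isg15 (2.73 ± 0.81, adjusted p = 0.104) had the smallest p among the 12, and 8 of the 12 had negative values. With T cell marker scaling 10 of the 12 were lower (88.8% of all tested genes), with a median of -3.65, against -3.49 over all tested genes.

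**Figure D5:**
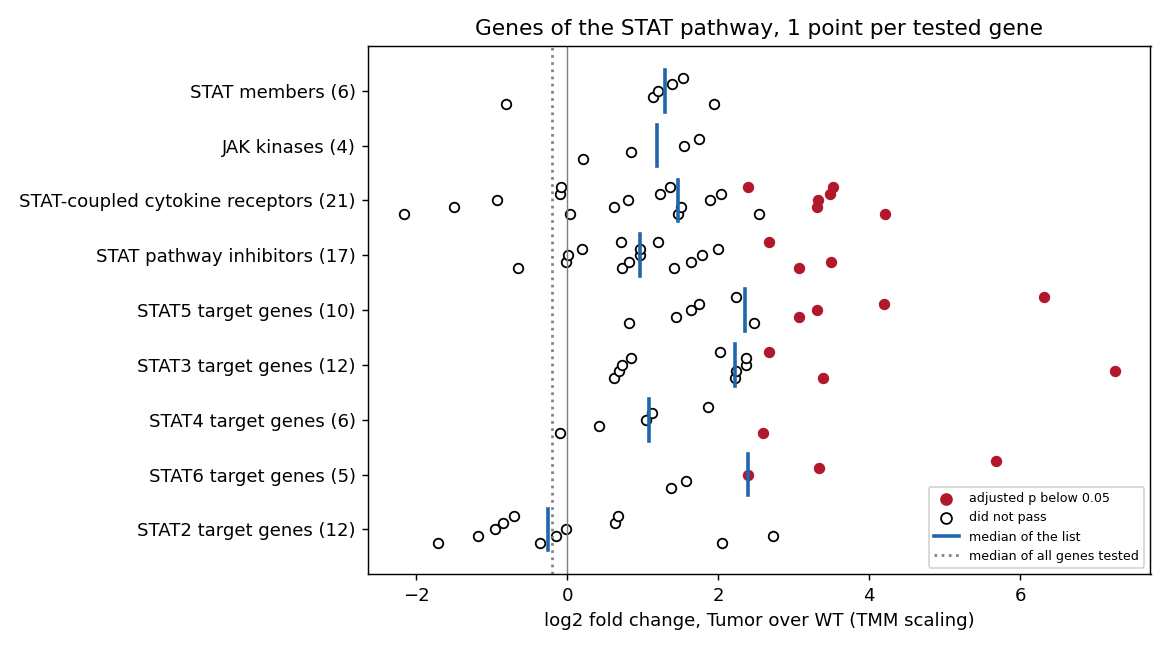
Log2 fold change (Tumor over WT, TMM scaling) of every tested gene of the STAT family and of 8 pathway lists, with the number of tested genes in brackets. Filled points passed (adjusted p below 0.05), the blue bar is the list median and the dotted line the median of all genes tested (-0.20). The STAT2 targets are centred at -0.25, the other lists between 0.97 and 2.39.

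The STAT genes did not all vary together. Over the 10 libraries (log2 CPM, Pearson), Stat3, Stat4, Stat5a and Stat5b had r of 0.74 to 0.92 with each other, and within groups, with group means removed, 0.57 to 0.79. Stat6 had r of 0.24 to 0.46 with these 4, and -0.20 to -0.12 within groups. Stat2 had r of -0.46 with Stat6 and between -0.15 and 0.22 with the other 4. Within groups, Stat2 had r of -0.55 with Stat6, 0.47 with Stat3, and between -0.16 and 0.25 with Stat4, Stat5a and Stat5b. WT replicate 3 had the lowest Stat6 level of the 10 libraries (1.88 CPM, 4 reads) and the highest Stat2 level (154 CPM). The low and negative r of Stat6 and Stat2 may rest on that library, and r without it was not computed. Among 12185 protein coding genes with at least 10 CPM on average, those closest in pattern to Stat4 were Wnk1 (r = 0.99), the leukocyte phosphatase gene Ptprc (0.99) and Crem (0.98). Closest to Stat3 were Itga4 (0.98), Emb (0.97) and Rhoh (0.97), and to Stat5a Maf (0.97), Neb (0.97) and Ptpn7 (0.97). Closest to Stat5b were Npnt (0.97), Runx2 (0.94) and Prkch (0.91), to Stat6 Nkap (0.99), Zwint (0.98) and Bet1l (0.98), and to Stat2 Atp6v0c (0.93), Sec16a (0.89) and Srm (0.89). These are descriptions over 10 libraries that share depth and cell makeup within a library, and the best of many genes.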

How the data were processed

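RNA was measured in 10 libraries of sorted colon Tregs, 5 Tumor and 5 WT, grouped by their titles in the labels. The values deposited by the authors were raw read counts per gene, not normalized. The submitters' processing notes name mm10, featureCounts 1.5.0-p3 and HISAT2 2.0.5. The strand setting, annotation release and treatment of reads that fit several genes are not given in the sources used here. For the genes they share, 0 counts differed between the 10 single-sample files and the series table. Gene lengths in the table, used as deposited for values per kb, served for levels between genes. All 45 library pairs differed by more than sampling noise (lowest ratio of chi-square to its degrees of freedom 20.9).

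Counts were filtered with filterByExpr (minimum count 10, minimum total 15), scaled by TMM and tested in R 4.3.3 with edgeR 4.0.16 (robust quasi-likelihood fit with group as its single term). The p-values were adjusted by the Benjamini-Hochberg method over all 21414 genes tested, and an adjusted p below 0.05 was called. SE is the log2 fold change divided by the square root of F. The common biological coefficient of variation was 86.1%. The procedure was tested on simulated data in which all libraries shared a mean profile apart from planted changes. Those data held no difference in cell makeup between groups, so the test does not cover the makeup differences of these libraries. DESeq2 1.42.0 and limma 3.58.1 served as alternatives. Replicate numbers are shared by the groups, and no pairing of the samples was seen (correlations of deviations -0.13 to 0.038). The WT libraries differed widely in makeup, so these correlations cannot exclude a pairing.

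The STAT members, the 8 pathway lists, the 6 marker lists and the scaling to the geometric mean of 14 T cell marker genes were chosen with earlier results of these data known. Named genes were the 6 members, the called genes of each list or otherwise its 2 genes with the smallest p, and the 3 genes most correlated with each member. Foxp3 and Ifng, named beyond that, were chosen for their role. Of the STAT sequences, start-site windows came from RefSeq and coding sequences from GENCODE M21, whose coordinates matched the table for all 6 genes. Counts without molecular identifiers include amplification copies, so counting error understates the error of a library.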

Additional observations from a re-analysis of the deposited data

Results flagged for a closer look

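In WT replicate 3, Stat2 stood at 154 CPM, against 5.90 to 36.04 CPM in the other 4 WT libraries. The gap to the next library was 0.796 of the range of the group, above Dixon's 95% critical value of 0.71 for 5 samples. The ratio of Stat5a to Stat5b per length was 3.96 in Tumor replicate 5, with a gap of 0.850 of the range, and 1.58 in WT replicate 5, with a gap of 0.748. On the log2 scale neither ratio passed that value. In all, 28 groups of 5 were examined (levels and family shares of the 6 genes, and the Stat5a to Stat5b ratio on the linear and the log2 scale) and these 3 values stood apart, where chance gives about 1 in 20.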

How the results depend on the processing

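The 340 calls over all tested genes became 65 to 417 when single libraries were left out, 1993 without WT replicates 1 and 2, 1325 without WT replicates 3, 4 and 5, 1651 with DESeq2 (682 higher, 969 lower, against 293 and 47), 824 with voom and sample quality weights, 820 with no filter and 19045 with T cell marker scaling. Calls among the 6 STAT genes were 0 in the main analysis and 4 lower with T cell marker scaling (88.8% of all tested genes). There were 4 higher without WT replicates 3, 4 and 5 (2.32% of all tested genes). Either voom fit gave 1 higher, against 2.21% of all tested genes with voom and 3.32% with sample quality weights added. The fits without single libraries gave 0 to 1. The 1 call came without WT replicate 4, where 1.52% of all tested genes were called higher. All 5 positive STAT values reversed with T cell marker scaling (Stat3 -1.49, Stat4 -0.92, Stat5a -1.81, Stat5b -1.86, Stat6 -1.87) and under no other setting. Stat2 ranged from -1.08 to 0.43 without single libraries, reversed to 0.43 without WT replicate 3 and to 0.15 with voom and sample quality weights. Genes not overlapping were 4 of 6 on TMM, where 4.38% of all tested genes lay wholly above and 1.57% wholly below. They were 2 of 6 with the total of the tested genes alone (3 of 6 with the total of all genes). Without single libraries they were 3 to 5. The share of all tested genes was not computed for these totals or these fits. The difference in the Stat5a to Stat5b ratio was -0.052 to 0.63 without single libraries and reversed to -0.052 without Tumor replicate 5. With the replicate block, 141 genes and 0 STAT genes were called, and the Stat5a to Stat5b difference was 0.40 (exact p = 0.3125). The causes were not tested. The fewest reads of Stat2 and Stat6 in a WT library were 13 and 4.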
